A study of Mus musculus with 9 samples.

Results

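The antioxidant response genes controlled by Nrf2 were examined in AML12 hepatocytes depleted of *Srrm2*, a scaffold of nuclear speckles. The set was listed by name, with earlier results of these data known, and has 10 genes. They are *Nfe2l2*, which encodes Nrf2 itself, its repressor *Keap1*, and the targets *Gclc*, *Gclm*, *Gsr*, *Txnrd1*, *Srxn1*, *Prdx1*, *Nqo1* and *Hmox1*. All 10 were found, by gene identifier, among the 13643 genes listed in at least 1 of the 2 deposited tables. AML12 is a hepatocyte line from the liver of a mouse that carried a human TGF-alpha transgene, and all groups were grown in serum, ITS supplement and dexamethasone. RNA-seq covered 9 libraries, 3 from cells with a control hairpin, 3 with Srrm2 shRNA 1 and 3 with Srrm2 shRNA 2, each after lentiviral infection for 5 days. The lentiviral hairpins are carried by control and knockdown cells alike.

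Nrf2 is a basic leucine zipper transcription factor that is held low in resting cells because Keap1 hands it to a Cul3 ubiquitin ligase. Oxidants and electrophiles modify Keap1, Nrf2 accumulates, pairs with small Maf proteins and binds antioxidant response elements near its target genes. In liver these targets renew glutathione and thioredoxin, reduce quinones and degrade heme.

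The only measurement used for each gene was the authors' mean normalized count, which is the count of read pairs divided by a size factor of each library and averaged over the libraries of a comparison. One table averages control and shRNA 1 libraries, and the other averages control and shRNA 2 libraries. A mean of this kind holds control and knockdown cells together, carries no error, and gives no value for a single library, so a change against control cannot be read from it and nothing was tested. The ratio of the 2 means can be read, because the control libraries enter both. If both tables hold the same 3 control libraries with equal weight, a ratio above 1 is a lower bound of the fold of the shRNA 2 over the shRNA 1 libraries, its inverse serves likewise below 1, and doubling the difference of the means gives the difference between those groups. In bulk RNA, a smaller share of cells with a transcript and less of it per cell cannot be told apart.

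Before ratios were taken, the means of the shRNA 2 table were divided by 1.048, the median ratio of the 2 tables over the 7757 genes whose mean was 100 or more in each. On this scale the quartiles of the log2 ratio of those genes were -0.09 and 0.08. The tables list 13424 and 13478 genes, with summed means of 6144608 and 6393456. *Srrm2*, the targeted gene, had means of 3428 and 3759 and a log2 ratio of 0.07, which does not check the knockdown, since control cells are part of both means. Of 9 hepatocyte markers all were listed, with *Alb* at 2151 and 1814 and the transcription factor *Hnf4a* at 1498 and 1624, whereas the apolipoprotein gene *Apoa1* had 39.4 and 38.9. Of the 7 that passed a mean of 100 in each table, 4 had a ratio above 1 and 3 below. Past a 1.2-fold ratio were 2, in opposite directions, *Alb* with a log2 ratio of -0.31 and *Serpina1a*, with means of 316 and 426, of 0.36. *Fgb*, with means of 122 and 84.3 and a log2 ratio of -0.60, was left out of these counts by its mean in the shRNA 2 table. Of 4 bile duct markers 3 were listed, with *Krt19* at 2851 and 2753, *Krt7* at 1351 and 1617 and *Sox9* at 670 and 750, while *Epcam* was not. Of these ratios 2 were above 1 and 1, that of *Krt19*, below, with 0 past 1.2-fold. None of 3 endothelial markers was listed. Only 2 of 5 fibroblast or stellate cell markers were listed, with means of at most 8.03, and 2 of 4 leukocyte markers, with means of at most 29.8. Hepatocyte transcripts and keratins of bile duct cells were thus both present, and the part of the latter in the values of the Nrf2 genes was not tested.

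The antioxidant response element is the sequence through which Nrf2 acts, and its core, TGACNNNGC, was searched on both strands of RefSeq promoter windows on GRCm38.p6, which run from 250 bases before to 50 bases after each start. Windows were present for 7 of the 10 genes, and 5 of the 7 held a match in at least 1 window, against 14.0% of 27025 genes with a window. *Gclc*, *Gsr* and *Hmox1* had no entry. Among the 36 other genes of the pathway described further on, 10 of the 32 with a window held a match, or 31.2%. The matches upstream of a start are printed so that their letters can be compared between genes. Each is read 5′ to 3′ on the strand of its gene, with the core or its reverse complement in capitals.
Nfe2l2, chr2:75704887-75704911, minus strand: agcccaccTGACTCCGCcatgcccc
Gclm, chr3:122245415-122245439, plus strand: tcccgggcGCACCGTCAactctcac
Txnrd1, chr10:82859106-82859130, plus strand: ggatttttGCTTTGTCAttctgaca
Prdx1, chr4:116685458-116685482, plus strand: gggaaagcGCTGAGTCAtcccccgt
The first base of the match lay at position -240 from the start in *Nfe2l2*, -134 in *Gclm* and -133 in *Prdx1*. *Txnrd1* has 3 windows, for different starts, and a match in 1 of them, at position -92, while the other two held none. The match of *Prdx1* also contains the AP-1 site TGACTCA on its other strand. In *Srxn1* the match began at base 29 after the start, in the transcribed part, and is not printed. The windows of *Keap1* and *Nqo1* held none, and bases outside the windows were not searched. A match is a description of the letters in a window, and says nothing about binding in these cells.

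The level of each gene per kb of exon, which allows genes to be set against each other, spanned a wide range. *Gclc*, the catalytic subunit of the enzyme that commits cysteine to glutathione, was the highest of the 10, at 2017 normalized counts per kb in the shRNA 1 table and 1795 in the shRNA 2 table. This was above 99.4% of all 13424 genes of the shRNA 1 table. *Prdx1*, a peroxiredoxin that reduces hydrogen peroxide, followed at 1233 and 1275 per kb. *Txnrd1*, the cytosolic thioredoxin reductase, had 344 and 457 per kb, *Gsr*, glutathione reductase, 313 and 343, and *Nfe2l2* 303 and 310. *Hmox1*, the inducible heme oxygenase, had 190 and 199 per kb, *Gclm*, the modifier subunit that pairs with Gclc, 133 and 147, *Srxn1*, the sulfiredoxin that repairs overoxidized peroxiredoxins, 98.2 and 118, and *Keap1* 51.4 and 54.2. *Nqo1*, the quinone reductase often used as a marker of Nrf2 activity, was the lowest, at 3.59 and 4.10 per kb, above 12.5% of the genes of the shRNA 1 table. The order of the 10 genes was the same in both tables. No spread was available to say which neighbours differ. With the longest transcript as the length, *Nfe2l2* moved from the fifth place to the third, ahead of *Txnrd1* and *Gsr*.

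**Figure D1:**
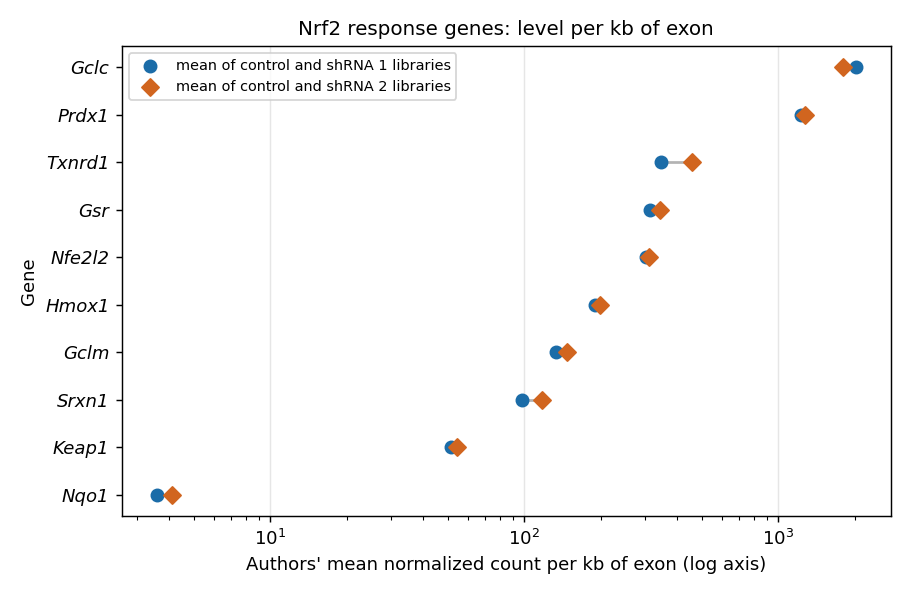
Authors' mean normalized count per kb of exon (log axis) of each of the 10 genes, with circles for the mean of control and shRNA 1 libraries and diamonds for the mean of control and shRNA 2 libraries, as deposited; no error is available. *Gclc* lies at 2017 and 1795 per kb and *Nqo1* at 3.59 and 4.10, and the widest gap between neighbouring genes on this axis is the one between *Keap1* and *Nqo1*.

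Partners within the pathway were unequal in level. Transcripts of *Gclc* were 15.1 times as abundant per kb as those of its partner *Gclm* in the shRNA 1 table and 12.2 times in the shRNA 2 table. *Nfe2l2* stood at 5.90 and 5.71 times the level of *Keap1* per kb. *Prdx1* stood at 12.6 and 10.8 times the level of *Srxn1*. *Txnrd1* and *Gsr*, which draw on NADPH for the thioredoxin and the glutathione system, were closer to each other, at 1.098 and 1.329 times. The size of these ratios depends on the length used, here the union of exons. Per kb of the longest transcript, the shRNA 1 table gave 465 for *Nfe2l2* and 51.4 for *Keap1*, and 1636 for *Prdx1* and 98.4 for *Srxn1*. It gave 2017 for *Gclc* and 141 for *Gclm*, and 381 for *Txnrd1* and 323 for *Gsr*. Together the 10 genes held 0.255% and 0.246% of the summed means of the tables.

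The 2 regulators had nearly equal means in the tables. *Nfe2l2* (ENSMUSG00000015839.6) lies on the minus strand of chromosome 2 of mm9, from 75513570 to 75542698. Its means were 1150 in the shRNA 1 table and 1177 in the shRNA 2 table, a log2 ratio of -0.04 after scaling. *Keap1* (ENSMUSG00000003308.8), on the minus strand of chromosome 9 from 21034174 to 21043776, had means of 230 and 242 and a log2 ratio of 0.01. The lincRNA Gm16754 overlaps the *Keap1* locus on the opposite strand, and an annotated U6 snRNA lies within *Nfe2l2* on its own strand. A ratio near 1 does not bound the fold between the hairpins from above, since control libraries may hold most of the mean, and it leaves any change common to both hairpins unmeasured.

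The ratios of the 2 subunits of glutamate-cysteine ligase lay on opposite sides of 1, with neither past 1.2-fold. *Gclc* (ENSMUSG00000032350.8; chromosome 9, 77602342 to 77642292, plus strand) had a mean of 6904 in the shRNA 1 table and of 6146 in the shRNA 2 table, or 5863 after scaling. Its log2 ratio was -0.24, and 5.67% of the 7757 genes had a lower one. Under the assumption of shared controls and with this scaling, the lower bound of the fold of shRNA 1 over shRNA 2 libraries was 1.1776 for *Gclc*. Without scaling the log2 ratio was -0.17. The group means differed by -2083 normalized counts (shRNA 2 minus shRNA 1). *Gclm* (ENSMUSG00000028124.7; chromosome 3, 121948475 to 121972902, plus strand) had means of 684 and 756 and a log2 ratio of 0.08, between the quartiles of all genes. The lincRNA Gm17494 lies on the opposite strand of *Gclm*.

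Among the enzymes of thiol reduction, *Txnrd1* had the largest ratio of the 10 genes. *Txnrd1* (ENSMUSG00000020250.8) lies on the plus strand of chromosome 10, from 82296696 to 82360469, and its product is a selenoprotein that needs selenium to be made in full. Its means were 1383 in the shRNA 1 table and 1835 in the shRNA 2 table, or 1750 after scaling. The log2 ratio was 0.34, and 98.7% of the 7757 genes had a lower one. The lower bound of the fold of shRNA 2 over shRNA 1 libraries was then 1.265 under the same assumption and scaling, with group means 734 normalized counts apart. Over the other scalings tried the log2 ratio of *Txnrd1* ran from 0.335 to 0.407. The control mean cannot exceed 2767 normalized counts, which is all that the tables' means say of it.

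*Srxn1* (ENSMUSG00000032802.7; chromosome 2, 151931252 to 151937112, plus strand) was next, with means of 277 and 333 and a log2 ratio of 0.20, higher than in 93.5% of genes. *Gsr* (ENSMUSG00000031584.9; chromosome 8, 34762995 to 34808635, plus strand) had means of 863 and 946 and a log2 ratio of 0.06, and an annotated SNORA48 snoRNA lies in its locus on the same strand. *Prdx1* (ENSMUSG00000028691.6; chromosome 4, 116358149 to 116373427, plus strand) had 3753 and 3880 and a log2 ratio of -0.02. The sulfiredoxin gene and its peroxiredoxin substrate therefore stood at different places among all genes.

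Of the quinone and heme enzymes, *Hmox1* differed little between the tables, and *Nqo1* was too low to compare. *Hmox1* (ENSMUSG00000005413.6; chromosome 8, 77617490 to 77624495, plus strand) had means of 410 and 429, which became 410 and 409 after scaling. Its log2 ratio was -0.00081, near the median of all genes. *Nqo1* (ENSMUSG00000003849.8; chromosome 8, 109912125 to 109927106, minus strand) had means of 5.57 and 6.37, too few counts for its log2 ratio of 0.13 to be read as a difference. It was the 1 gene of the 10 below the minimum mean of 100. Its control mean cannot exceed 11.1 normalized counts.

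For a count of differences, a ratio past 1.2-fold in either direction was used. Of the 9 genes that passed the minimum mean, 1 was past it with the higher mean in the shRNA 2 table (*Txnrd1*) and 0 with the lower, where 3.13% and 4.31% of the 7757 genes were. At a minimum mean of 1000, which 1266 genes passed, 1.42% were higher and 3.24% lower, and *Txnrd1* was 1 of 4 members with such a mean. The median log2 ratio of the 9 genes was 0.01, and that of all genes is 0 by the scaling. One gene of 9 is close to the share of all genes past the fold, 7.44% either way, so the count shows nothing particular to the set.

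**Figure D2:**
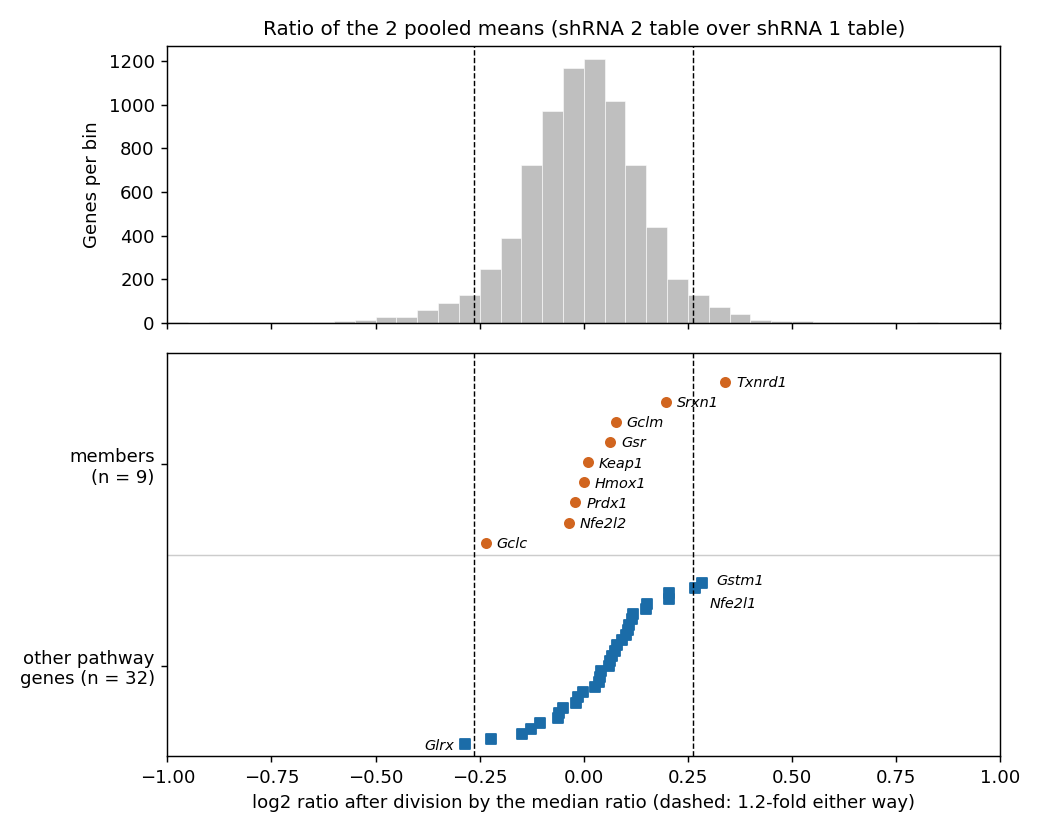
Log2 ratio of the 2 pooled means, shRNA 2 table over shRNA 1 table, after division by the median ratio. Grey bars count all 7757 genes whose mean was 100 or more in each table (4 of them beyond a log2 ratio of 1 in size are drawn in the end bins), orange circles are the 9 Nrf2 genes that passed this minimum, blue squares are 32 other genes of the pathway, and the dashed lines mark 1.2-fold. *Txnrd1* lies beyond the upper line at 0.34, *Gclc* inside the lower line at -0.24, and vertical position within a group only separates the points.

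Other genes of the pathway were taken from a list of 36, of which 34 were listed and 32 passed the minimum mean. The export and detoxification list member *Cbr3* and the glutathione peroxidase *Gpx2* were not listed in either table. Past 1.2-fold, 2 of the 32 genes had the higher mean in the shRNA 2 table and 1 the lower, where 3.13% and 4.31% of all genes were. At a minimum mean of 1000, 2 of 14 were higher and 0 lower, where 1.42% and 3.24% of all genes were. Counts this small were not tested against these shares. *Nfe2l1*, a relative of Nrf2 that drives proteasome genes, had means of 1876 and 2366 and a log2 ratio of 0.27. *Gstm1*, a glutathione S-transferase, had 1071 and 1367 and a log2 ratio of 0.28, and has close paralogs, so that pairs mapping to more than one of them were not counted. *Glrx*, glutaredoxin, had 935 and 804 and a log2 ratio of -0.29. Across the 32 genes, 21 ratios were above 1 and 11 below, with a median log2 ratio of 0.06.

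The 8 regulators of the list had ratios above 1, with a median log2 ratio of 0.09, where the scaling puts as many of all genes above 1 as below. The log2 ratios of *Cul3* and *Rbx1*, 0.04 each, lay between the quartiles of all genes. In the other roles of the list ratios lay on both sides of 1, and the split was not tested. Of the regulators among the members, *Nfe2l2* was below 1, at a log2 ratio of -0.04, and *Keap1* just above it, at 0.01. Among the 8 of the list, the lowest mean was that of *Rbx1*, a subunit of the Cul3 ligase, at 320 and 345. The highest was that of *Sqstm1*, the autophagy adaptor that binds Keap1, at 3169 and 3682. *Cul3* itself had 1269 and 1364, and *Bach1*, which competes with Nrf2 for response elements, 334 and 376. The small Maf genes *Maff*, *Mafg* and *Mafk* had log2 ratios of 0.08, 0.08 and 0.15. Except for *Nfe2l1* these ratios stayed within 1.2-fold.

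In the glutathione and thioredoxin group, 7 of 9 genes passed the minimum, with *Prdx6* the highest at 2629 and 2973. The lowest was *Slc7a11*, the cystine importer that feeds glutathione synthesis, whose means of 84.2 and 101 left it below the minimum. All 6 genes of NADPH supply were within 1.2-fold. By mean, the lowest was *G6pdx*, the entry enzyme of the pentose phosphate pathway, at 278 and 250 with a log2 ratio of -0.22. The highest by mean was *Tkt*, transketolase, at 2571 and 2902 with a log2 ratio of 0.11. Of 7 genes of detoxification and export 6 passed and none was past 1.2-fold, with *Aox1*, aldehyde oxidase, lowest at 492 and 511, and *Abcc4*, an efflux pump, highest at 2598 and 2846. In the heme and iron group the ferritin heavy chain gene *Fth1* was highest at 8134 and 7691, with a log2 ratio of -0.15, and *Blvrb*, biliverdin reductase B, lowest at 23.3 and 24.3. *Cat*, catalase, had 4201 and 4780, *Osgin1* 1709 and 1788, and *Sod1*, the cytosolic superoxide dismutase, 420 and 434. Ferritin and peroxiredoxin genes have processed copies elsewhere in the genome, so counts of unique pairs may miss part of their reads.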

How the data were processed

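RNA-seq libraries of AML12 cells were made in 3 groups of 3, assigned from the sample titles. For 2 of the control libraries the description points to tables of hairpins beyond these, and the titles name no table. The labels thus do not settle which controls entered each table, and that both hold the same ones was assumed. Per the methods of the study, the authors trimmed reads and aligned them to mm9 by TopHat2. They retained pairs with a unique position, and HTSeq gave the count of each gene of GENCODE M1. Size factors and means came from DESeq2 (1.8.2) as run by the authors. Whether counting used strand is not given in the sources used here. The authors deposited, for each gene, a mean normalized count over the libraries of a comparison, a normalized signal that is not per length. The deposited tables also hold the fold change, standard error, test statistic, p-value and adjusted p-value of the authors' own comparison, and these columns were not used. No value per library was used, so depth per library and replicate spread are unknown here.

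Gene identifiers all matched GENCODE M1 on NCBIM37, the assembly of mm9. Lengths are the union of exons. The means of the shRNA 2 table were divided by the median ratio over genes whose mean was 100 or more in each table, and a 1.2-fold ratio was counted as a difference. The scaling and ratio were checked on simulated libraries. These shared their controls by construction, so the assumption of shared controls itself was not checked. Alternatives were no scaling, scaling by summed means, a minimum mean of 10, folds of 1.1 and 1.5, the longest transcript and, added after the data were seen, a minimum mean of 1000. All 10 members were named. Of the other pathway genes, those past 1.2-fold and the highest and lowest mean of each role were named by rule, and *Cul3*, *Bach1*, the Maf genes, *Cat*, *Osgin1* and *Sod1* were added for their roles after their values were seen. The members and lists were chosen with earlier results of these data known. Promoter windows are those of RefSeq on GRCm38.p6. Python 3.11.15, numpy 2.4.6, pandas 2.3.3 and matplotlib 3.10.9 were used.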

Additional observations from a re-analysis of the deposited data

How the results depend on the processing

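The median log2 ratio of the 9 genes was 0.01, and 0.078 without scaling, 0.0208 with scaling by the summed means and 0.0057 with the median ratio taken over genes with a mean of at least 10. Without scaling, the ratios of *Nfe2l2*, *Prdx1* and *Hmox1* went from just below 1 to above it, with log2 values of 0.03, 0.05 and 0.07, and that of *Hmox1* also did so with scaling by the summed means. The log2 ratio of *Txnrd1* ran from 0.34 to 0.41 and that of *Gclc* from -0.24 to -0.17 over these settings. At 1.1-fold, 3 of the 9 genes were counted in place of 1, with *Srxn1* and *Gclc* added, and 9 of the 32 other pathway genes in place of 3, where 13.8% of all genes were higher and 14.8% lower, so both counts are near the share of all genes. At 1.5-fold 0 were counted in both lists, where 0.206% of all genes were higher and 0.258% lower. Without scaling 2 of the 9 genes were counted, with *Srxn1* added, and the split of the other pathway genes went from 2 higher and 1 lower to 4 and 0, while that of all genes went from 3.13% and 4.31% to 6.64% and 2.32%. The median level per kb of the 10 genes was 246 normalized counts in the shRNA 1 table, and 289 with the longest transcript as the length. No paired analysis was possible because the tables used hold no value per library, and for the same reason leaving out each replicate in turn was not run.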
